A study of Mus musculus with 6 samples.

Results

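The expression of 47 lysosomal genes was examined in synovial fibroblasts (SFs), the mesenchymal cells of the joint lining, with and without amisulpride. The genes were chosen by name as 8 lysosomal membrane proteins, 24 hydrolases with their cofactors, and 15 subunits and accessory proteins of the vacuolar proton pump (V-ATPase), and all 47 were found, each in 1 row, among the 49548 genes of the table. SFs were cultured from ankle joints of hTNFtg mice, which carry a human TNF transgene and develop inflammatory polyarthritis, and all 6 libraries carry that transgene. The untreated group (3 libraries) had no treatment according to the labels, where the methods speak of vehicle, and the amisulpride group (3 libraries) was given 500 μM amisulpride, an antipsychotic of the benzamide class, for 48 hours. According to the methods the mice were young adults of a mixed CBA and C57BL/6J background, and CD45+ cells were depleted early in culture. The methods name 3 biological replicates and do not say how many mice each held, so the p-values below measure the spread between these cultures.

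Lysosomes are acidic organelles that degrade proteins, glycans and lipids. The V-ATPase is a rotary pump whose cytosolic V1 sector splits ATP and whose membrane V0 sector carries protons into the lumen, and the acid that it makes is what the soluble hydrolases need. Membrane proteins such as LAMP1 and LAMP2 coat the inner face of the limiting membrane, and others carry ions, amino acids or cargo across it. Many of these genes are known targets of the transcription factors TFEB and TFE3, which bind an E-box with the core CACGTG in promoters (the CLEAR element). Basic lipophilic drugs are known to gather in acidic compartments, and amisulpride holds a basic amine, so the question asked here was whether transcripts of the 3 classes differed after the drug.

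The promoters were searched for that core, a feature that the choice by name did not use. As many of these genes are known targets of factors that bind it, a high share of it is not an independent result. The median GC content was 56.33% in windows of these genes and 52.67% in all windows. The window from 250 bases before to 50 bases after each RefSeq start site (GRCm38.p6) was available for 41 of the 47 genes, in 45 windows. The core CACGTG, which reads the same on both strands, lay in a window of 12 of these 41 genes (29.3%), against 8.09% of the 27025 genes of that table and 12.04% of the 8651 of them that were tested here. The longer form GTCACGTG or its reverse complement, which contains the core, lay in 9 genes (21.9% of 41), against 2.55% of all genes and 5.02% of tested ones. The palindrome TCACGTGA, which also contains the core, was found in 5 genes (12.2%), against 1.12% and 2.32%. A match is a description of letters and not a measured binding site.

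The 4 genes with more than 1 copy of the core are shown because they carry the feature most densely, and Scarb2, which has none, is shown because it had the lowest p-value of all 47 genes. Each runs 5′ to 3′ on the strand of its gene, and capitals mark the core with a T or GT directly before it and an A or AC directly after it, where present.
Lamp1 (chr8:13158911-13159210, plus strand): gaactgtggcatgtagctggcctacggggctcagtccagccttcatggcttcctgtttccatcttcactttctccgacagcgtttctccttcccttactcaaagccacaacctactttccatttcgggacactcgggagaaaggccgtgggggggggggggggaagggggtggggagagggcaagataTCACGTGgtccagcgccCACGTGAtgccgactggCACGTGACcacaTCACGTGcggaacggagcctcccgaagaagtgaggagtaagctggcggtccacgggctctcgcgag
Mcoln1 (chr8:3500269-3500568, plus strand): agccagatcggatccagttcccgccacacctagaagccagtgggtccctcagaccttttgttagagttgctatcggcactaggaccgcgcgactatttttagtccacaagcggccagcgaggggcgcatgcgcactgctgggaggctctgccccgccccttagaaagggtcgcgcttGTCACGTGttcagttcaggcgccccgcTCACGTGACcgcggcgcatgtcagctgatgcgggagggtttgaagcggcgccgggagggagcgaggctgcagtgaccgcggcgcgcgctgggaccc
Gla (chrX:134600956-134601255, minus strand): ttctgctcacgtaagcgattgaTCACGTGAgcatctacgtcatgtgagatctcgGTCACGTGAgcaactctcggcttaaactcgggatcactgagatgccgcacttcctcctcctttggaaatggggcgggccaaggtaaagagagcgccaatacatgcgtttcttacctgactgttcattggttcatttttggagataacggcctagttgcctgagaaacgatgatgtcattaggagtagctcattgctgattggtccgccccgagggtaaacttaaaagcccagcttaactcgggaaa
Atp6v0b (chr4:117887280-117887579, minus strand): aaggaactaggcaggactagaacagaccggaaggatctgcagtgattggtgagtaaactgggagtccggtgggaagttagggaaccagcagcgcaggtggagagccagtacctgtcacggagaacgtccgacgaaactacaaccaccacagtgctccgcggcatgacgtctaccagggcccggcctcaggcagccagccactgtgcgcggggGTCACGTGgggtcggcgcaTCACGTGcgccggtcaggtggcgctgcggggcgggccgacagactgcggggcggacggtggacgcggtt
Scarb2 (chr5:92505608-92505907, minus strand): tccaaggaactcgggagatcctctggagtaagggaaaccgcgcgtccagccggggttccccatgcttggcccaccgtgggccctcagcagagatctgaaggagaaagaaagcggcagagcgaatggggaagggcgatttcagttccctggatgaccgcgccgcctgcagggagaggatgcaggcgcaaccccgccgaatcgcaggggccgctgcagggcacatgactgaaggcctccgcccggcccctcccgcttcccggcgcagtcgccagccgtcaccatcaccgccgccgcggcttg
Counted from the start site, the 4 copies of Lamp1 began at -61, -45, -28 and -15. The 2 copies of Mcoln1 began at -71 and -45, those of Gla at -227 and -194, and those of Atp6v0b at -36 and -18. The other 8 genes with the core were Arsa, Gaa, Glb1, Naglu and Sgsh among the hydrolases and Atp6v0d1, Atp6v0e and Atp6v1a among the pump genes. Of the 12 genes with the core, 5 were higher and 7 lower after amisulpride, with a median log2 fold change of -0.03, and of the 29 without it 16 were higher, with a median of 0.03. The 5 genes with TCACGTGA (Mcoln1, Gla, Atp6v0d1, Atp6v0e and Atp6v1a) were all higher, with a median of 0.24. Without amisulpride replicate 3 the median was 0.09 and Gla and Atp6v0e were below 0, and this subset was noticed after its values were seen.

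Values are normalized counts, that is, reads per gene that were divided by 1 factor per library and rounded. Libraries held approximately 2.52 to 4.71 M reads counted in genes, with a doubtful estimate of 4.03 M for untreated replicate 1. Amisulpride replicate 3 was the shallowest library at 2.52 M reads and stood apart from the others on the leading principal component (73.9, against -38.2 to 10.4), so values without it are given beside the results that it moved most. All 12 fibroblast markers were expressed, with a summed value of 45214 to 60230 in untreated and 52109 to 91835 in treated libraries. All 10 macrophage markers were present too, led by Lyz2, and their summed value was 2744 to 5265 in untreated and 2588 to 4866 in treated libraries. The 6 osteoclast markers summed to 406 to 844 and 81 to 588. Endothelial markers summed to at most 15, and all 5 lymphocyte markers were at 0. Macrophages and osteoclasts are rich in lysosomes, and the part of such cells in the values below was not tested. In bulk RNA, fewer cells of a type and less RNA per cell cannot be told apart.

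The lysosomal genes as a whole did not shift in one direction after 500 μM amisulpride. All 47 passed the filter on low values (10 normalized counts or more in 3 or more libraries). Of these, 23 were higher and 24 lower in treated SFs, with a median log2 fold change of -0.03, and the 12614 genes tested had a median of 0.00 with 50.1% higher. In limma 0 of the 47 had an adjusted p-value under 0.05, against 0.285% of all genes tested, and 0 passed the thresholds of the study (a log2 fold change beyond 1 in either direction and an unadjusted p-value under 0.05), against 5.7% of all genes, 2.69% in the higher and 3.01% in the lower direction. An unadjusted p-value under 0.05 was found for 2 genes (4.26%), Scarb2 and Lipa, both higher, against 10.9% of all genes, of which 5.11% were higher and 5.77% lower. The share among lysosomal genes was thus below the background. Groups did not overlap for 3 genes (6.38%), namely Lamp2, Scarb2 and Tpp1, all higher in treated SFs, against 16.5% of all genes, of which 7.8% were higher and 8.66% lower. In the treated library of each of the 3 replicate numbers, 9 of the 47 were higher and 7 lower. The same held for 16.9% and 17.8% of all genes tested, so agreement over the numbers is not particular to the genes named below.

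No lysosomal gene differed by 2-fold or more, and the errors were wide. The 47 log2 fold changes ranged from -0.51 (Atp6v0c) to 0.81 (Lipa), with a median absolute value of 0.23 against 0.31 for all genes. Their 95% confidence intervals reached 0.50 to 1.15 to each side, with a median of 0.67. For 26 of the 47 genes the interval lay wholly inside a 2-fold change either way, and for the other 21 a 2-fold change in at least 1 direction was within the interval. The intervals of 45 genes included 0.

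**Figure D1:**
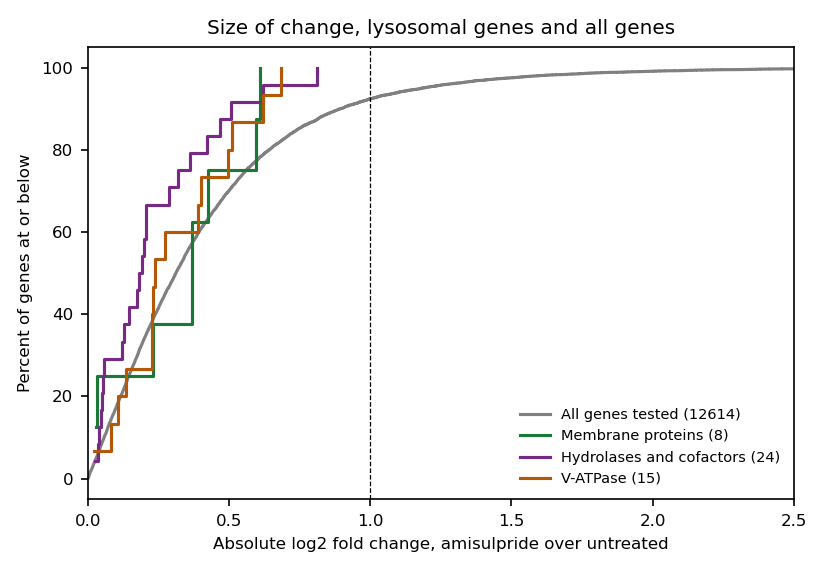
Cumulative distribution of the absolute log2 fold change, amisulpride over untreated (x axis), as the percent of genes at or below each value (y axis), for the 3 lysosomal classes and for all 12614 genes tested. All 3 lysosomal curves reach 100% before 1, the dashed line of a 2-fold change, and the hydrolase curve lies mostly above that of all genes, with a median of 0.19 against 0.31, while the medians of membrane proteins and V-ATPase genes were 0.37 and 0.24.

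The 8 membrane proteins had 4 genes higher and 4 lower, with a median log2 fold change of 0.00. Scarb2 (ENSMUSG00000029426, mm10 chr5:92441314-92506833, minus strand), which encodes LIMP-2, the membrane protein that carries beta-glucocerebrosidase to the lysosome, had 798, 1015 and 951 normalized counts in untreated replicates 1 to 3 and 1536, 1467 and 1179 in treated ones. Every treated library lay above every untreated one. The log2 fold change was 0.59 ± 0.24 (SE), a 1.51-fold higher value, and the limma p-value was 0.0295 before and 0.385 after adjustment. It was 0.71 without amisulpride replicate 3 and 0.49 without untreated replicate 1. The unadjusted limma p-value was under 0.05 in 13 of 18 settings, and was 0.0847, 0.0637, 0.0871 and 0.0808 without untreated replicates 1 and 3 and amisulpride replicates 1 and 2.

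Lamp2, which encodes an abundant glycoprotein of the lysosomal membrane that also serves chaperone-mediated autophagy, had 2587, 3891 and 3468 normalized counts in untreated and 6206, 4888 and 4089 in treated libraries. Here too the groups did not overlap, with amisulpride replicate 3 the closest to the untreated range. The log2 fold change was 0.61 ± 0.28 (SE), and the limma p-value was 0.0518 before and 0.463 after adjustment. Without amisulpride replicate 3 the change was 0.75, and these limma p-values were 0.0173 and 0.267. Lamp1, the partner of Lamp2 in that coat, had 3739, 3390 and 3332 in untreated and 4413, 3066 and 1938 in treated libraries. The treated values of Lamp1 lay above, below and far below the untreated ones, and its log2 fold change of -0.23 ± 0.31 turned to 0.08 without amisulpride replicate 3. Whether Lamp1 and Lamp2 differ in their response was not tested.

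Mcoln1, the calcium-releasing channel TRPML1, was low at 42, 57 and 48 normalized counts in untreated and 54, 76 and 61 in treated libraries. It was higher in the treated library of each replicate number, its log2 fold change being 0.37 ± 0.30 (SE), and the groups overlapped. Ctns, the cystine exporter, had the lowest fold change of the class, at -0.43 ± 0.29, with 209, 287 and 246 in untreated and 237, 201 and 127 in treated libraries. Without amisulpride replicate 3 it was -0.17, and Cd63 was then the lowest of the class at -0.30. Laptm4a, a small membrane protein of late endosomes and the most counted of the class, stood at 23394, 23571 and 21059 against 28241, 23105 and 19088, a log2 fold change of 0.03 ± 0.31. Its relative Laptm4b was at -0.03 ± 0.28, or 0.20 without amisulpride replicate 3. Cd63, a tetraspanin of late endosomes, had 13905, 15848 and 22001 against 14387, 13197 and 11825, a log2 fold change of -0.37 ± 0.30 with overlapping groups. Its value is uncertain, since 53.9% of the 50-base words in the last 400 bases of its transcripts also occur in the pseudogene Cd63-ps, which itself held 2818 to 3892 normalized counts with a log2 fold change of -0.04 ± 0.26.

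**Figure D2:**
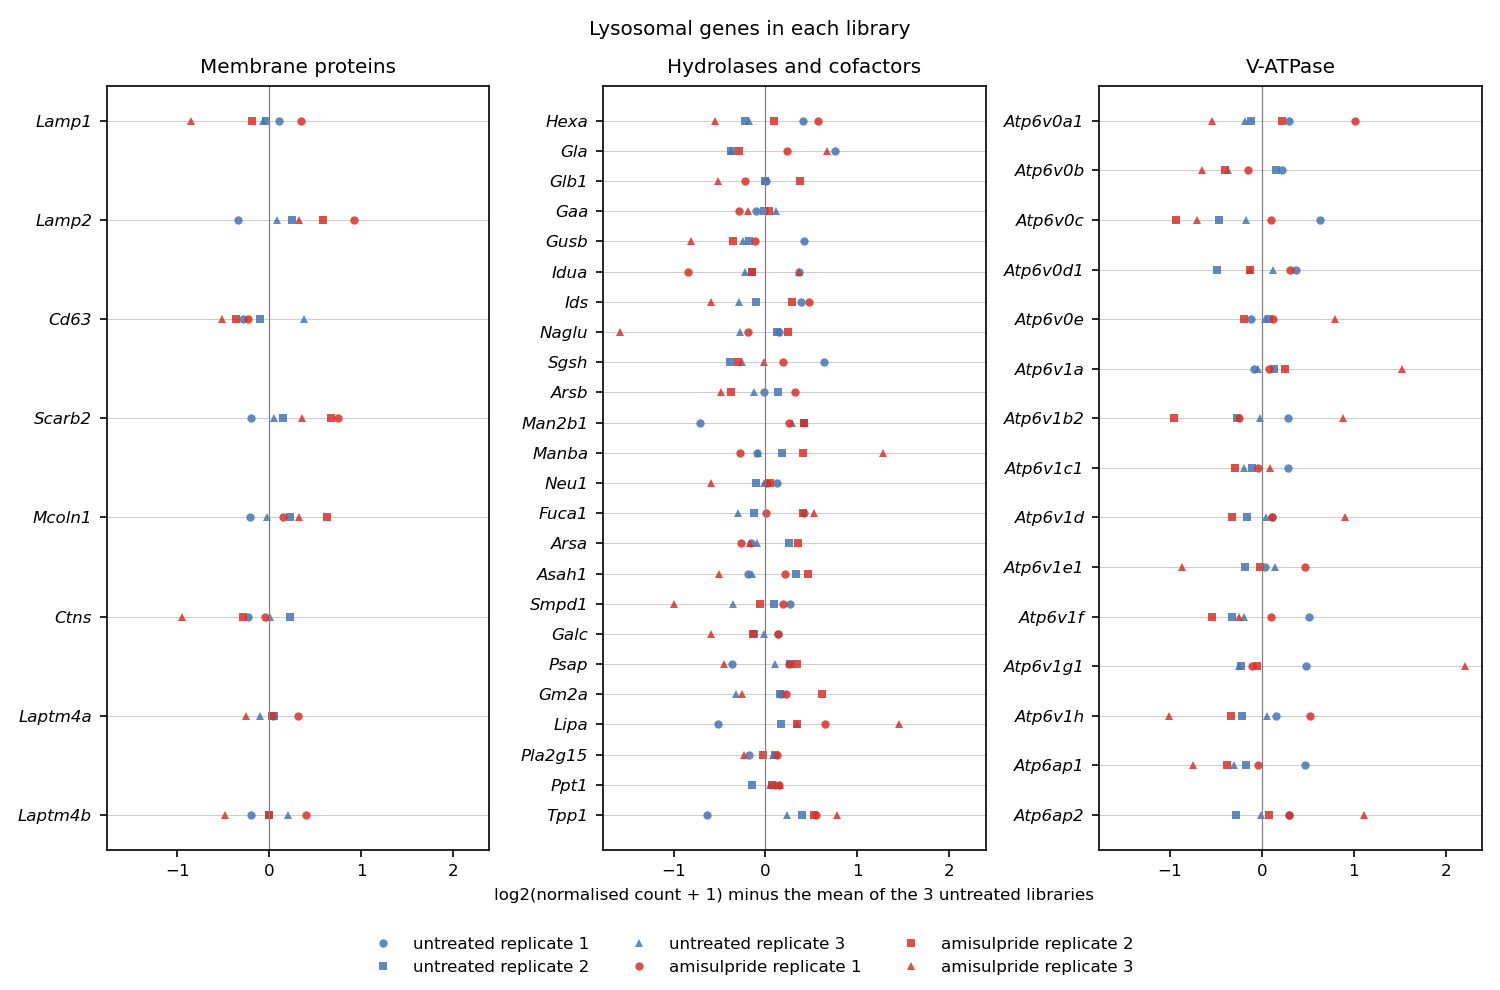
Each point is 1 library of 1 gene, as log2(normalized count + 1) minus the mean of the 3 untreated libraries (x axis), with untreated libraries in blue, amisulpride libraries in red and the replicate number as the symbol. The red triangles of amisulpride replicate 3 are the lowest of 6 for 22 of the 47 genes and the highest for 11, against 24.0% and 24.8% of all genes tested. Amisulpride replicate 1 is the highest of 6 for 12 genes and untreated replicate 1 for 13, against 13.1% and 20.4% of all genes tested.

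The 24 hydrolases and cofactors had 12 genes higher and 12 lower, with a median log2 fold change of 0.00 and 1 unadjusted p-value under 0.05. Lipa (ENSMUSG00000024781, mm10 chr19:34492318-34527474, minus strand), the acid lipase that frees cholesterol and fatty acids from lipoproteins taken up by the cell, had 98, 158 and 179 normalized counts in untreated and 220, 178 and 385 in treated libraries. Amisulpride replicate 2 lay just under the highest untreated library, so the groups overlapped by 1 value. The log2 fold change was 0.81 ± 0.34 (SE), a 1.75-fold higher value, and the limma p-value was 0.0359 before and 0.414 after adjustment. It was higher in the treated library of all 3 replicate numbers, by 1.16, 0.17 and 1.10. Leaving out amisulpride replicate 3 gave 0.49 and an unadjusted limma p-value of 0.128, leaving out untreated replicate 1 gave 0.55 and 0.15, and leaving out untreated replicate 2 gave 0.89 and 0.0533. Adjusted limma p-values ranged from 0.162 to 0.76 over 18 settings.

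Tpp1, a peptidase that removes tripeptides from the amino end of proteins, was the other hydrolase at the upper end. It had 1039, 2122 and 1896 normalized counts in untreated and 2364, 2329 and 2765 in treated libraries. The groups did not overlap, and untreated replicate 1 lay far below the other untreated libraries. The log2 fold change was 0.62 ± 0.30 (SE), and the limma p-value was 0.0614 before and 0.489 after adjustment. With the replicate number as a block these limma p-values were 0.0385 and 0.304. Without untreated replicate 1 the change was 0.31. Ppt1, which removes fatty acids from proteins, varied little, at 300, 252 and 289 against 310, 294 and 313, a log2 fold change of 0.13 ± 0.23. The gene Cap1 overlaps its 3′ end on the other strand, and the use of strand in counting is not given in the sources used here.

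Among the 8 genes of lipid breakdown, those other than Lipa stayed between -0.29 and 0.19 on the log2 scale. Psap, the precursor of the saposins that present sphingolipids to their enzymes, was the most counted of all hydrolases and cofactors, at 7498, 11651 and 10386 in untreated and 11547, 12258 and 7084 in treated libraries. Its groups spanned the same range, and the log2 fold change was 0.05 ± 0.32 (SE). Smpd1, the acid sphingomyelinase, had 535, 473 and 347 against 506, 428 and 222, a log2 fold change of -0.29 ± 0.33 that turned to 0.07 without amisulpride replicate 3. Asah1, the acid ceramidase, was at 0.05 ± 0.32, and Pla2g15, the lysosomal phospholipase A2, at -0.05 ± 0.24. The interval of Pla2g15 ran from -0.57 to 0.48, and that of Asah1 from -0.64 to 0.75. The sulfatide hydrolase Arsa (-0.03 ± 0.26), the galactosylceramidase Galc (-0.20 ± 0.28) and the GM2 activator Gm2a (0.19 ± 0.30) also had overlapping groups.

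Of the 14 enzymes that break down glycans and glycosaminoglycans, 6 were higher and 8 lower, and limma gave 0 an unadjusted p-value under 0.05. Manba, the beta-mannosidase, was at the upper end with 76, 92 and 77 normalized counts in untreated and 67, 108 and 199 in treated libraries. The log2 fold change of 0.47 ± 0.37 (SE) rested on amisulpride replicate 3, without which it was 0.06. Naglu, an enzyme of heparan sulfate breakdown, was at the lower end with 85, 84 and 63 against 67, 91 and 25. Its -0.51 ± 0.43 rested on the same library in the other direction and was 0.03 without it. Hexa, the alpha subunit of beta-hexosaminidase and the most counted of this group, had 1269, 823 and 844 against 1422, 1020 and 653, a log2 fold change of 0.03 ± 0.32. Gusb, the beta-glucuronidase, was lower in the treated library of each replicate number, at 593, 394 and 376 against 411, 349 and 254, at -0.42 ± 0.28 on the log2 scale (limma adjusted p of 0.629). Leaving out untreated replicate 1 gave -0.21, and leaving out amisulpride replicate 3 gave -0.23. The other enzymes of this group (Gla, Glb1, Gaa, Idua, Ids, Sgsh, Arsb, Man2b1, Neu1 and Fuca1) lay between -0.21 and 0.36. Gla and Idua had means of only 20 and 22.7 normalized counts in untreated SFs, and their intervals were the widest of the hydrolases, up to 1.03 to each side.

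**Figure D3:**
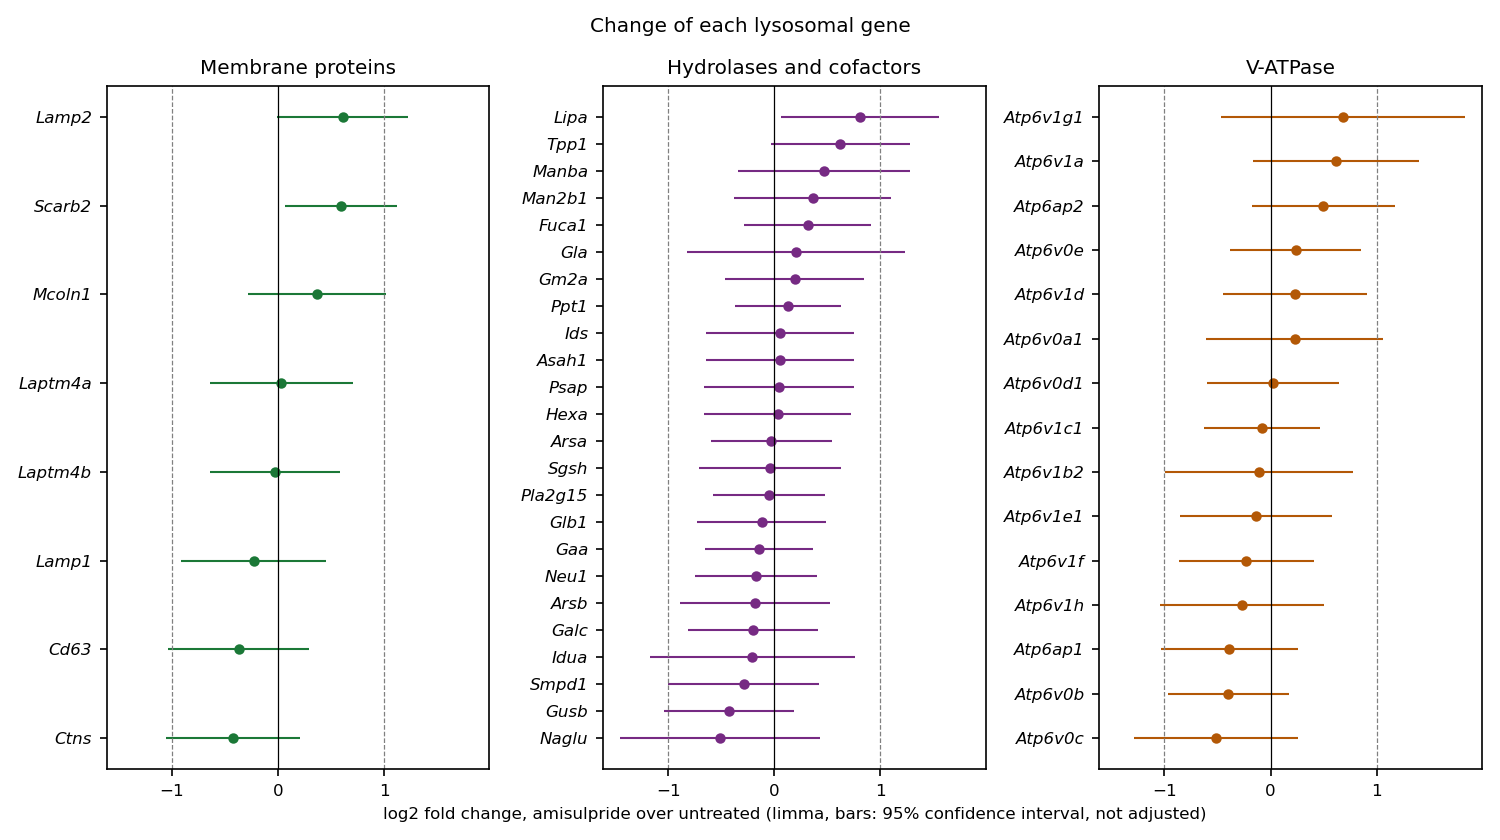
log2 fold change of each gene, amisulpride over untreated (x axis), with its 95% confidence interval from limma, not adjusted for the number of genes, and dashed lines at a 2-fold change. The intervals of Scarb2 and Lipa lie above 0, and those of the other 45 genes include it.

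The V-ATPase genes had 7 members higher and 8 lower, with a median log2 fold change of -0.08, and limma gave an unadjusted p-value under 0.05 to 0 of 15. Groups overlapped for all 15. Treated libraries spread more widely than untreated ones. The median coefficient of variation of the 15 genes was 19.5% in untreated and 40.3% in treated libraries, and that of the 8 V1 genes 15.7% and 48.9%, against 22.4% and 28.2% for all genes tested. Without amisulpride replicate 3 the median log2 fold change was the same to 2 decimals, -0.08, and 5 of the 15 genes changed sign.

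Amisulpride replicate 3 divided the subunits of the V1 sector, the ATP-splitting part. Atp6v1a, the catalytic A subunit, had 1636, 1894 and 1678 normalized counts in untreated and 1831, 2060 and 4989 in treated libraries. Atp6v1g1, a subunit of the peripheral stalk, had 463, 283 and 280 against 309, 321 and 1537. In both genes amisulpride replicates 1 and 2 stood in or near the untreated range and amisulpride replicate 3 stood above every other library. Atp6v1b2, the B subunit that alternates with A in the ring, had 3531, 2399 and 2843 against 2427, 1495 and 5329, with the lowest and the highest of the 6 values both in treated SFs. Atp6v1d, of the central stalk, followed with 344, 285 and 328 against 343, 254 and 596. By contrast Atp6v1e1 and Atp6v1h, of the peripheral stalk and the regulatory part, were lowest of all 6 in that library, at 798 and 143 normalized counts. Their untreated values were 1278 to 1604 and 248 to 321. Messages of subunits of 1 complex thus stood on opposite sides in the same library. That library was the highest of 6 for 4 and the lowest for 2 of the 8 V1 genes. It was so for 24.8% and 24.0% of all genes tested, so a split of this kind is not particular to the complex.

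The log2 fold changes of these genes moved with that library. Atp6v1g1 was at 0.68 ± 0.52 (SE) with it and at -0.08 without it, Atp6v1a at 0.62 ± 0.36 and 0.16, and Atp6v1b2 at -0.11 ± 0.40 and -0.60. Atp6v1h was at -0.27 ± 0.35 with it and 0.09 without it. Their adjusted p-values in limma were 0.573 to 0.946. Atp6v1c1 and Atp6v1f were at -0.08 ± 0.25 and -0.23 ± 0.29, the latter at 0.03 without untreated replicate 1.

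In the V0 sector, which holds the proton path, Atp6v0c, the proteolipid of the rotor ring, was the most counted gene and the lowest in fold change. It had 3767, 1754 and 2162 normalized counts in untreated and 2603, 1272 and 1491 in treated libraries, and was lower in the treated library of each replicate number, by 0.53, 0.46 and 0.54 on the log2 scale. The log2 fold change was -0.51 ± 0.35 (SE), and the limma adjusted p-value was 0.643, or 0.376 under the replicate block. Leaving out untreated replicate 1 gave -0.19, and leaving out amisulpride replicate 1 gave -0.82, where the unadjusted limma p-value was 0.0432. This value is uncertain, because the processed pseudogene Gm15487 shares 34.7% of the 50-base words at its transcript ends, and the gene Gm43796, which overlaps it on the same strand, held almost the same values (1286 to 3810). Atp6v0b, a relative of that proteolipid, was also lower in each number, at 1512, 1448 and 1010 against 1177, 990 and 827, with -0.40 ± 0.26. Atp6v0e had 1007, 1159 and 1124 against 1188, 956 and 1895, and its 0.24 ± 0.28 was -0.04 without amisulpride replicate 3. Atp6v0d1 and Atp6v0a1 were at 0.02 ± 0.28 and 0.23 ± 0.38. Atp6v0a1 was at 0.61 without amisulpride replicate 3 and at -0.17 without amisulpride replicate 1.

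The 2 accessory proteins, which attach to the V0 sector and help to assemble it, stood on opposite sides. Atp6ap1 had 3328, 2118 and 1946 normalized counts in untreated and 2324, 1847 and 1424 in treated libraries, a log2 fold change of -0.39 ± 0.29 (SE). Atp6ap2, which also binds prorenin, had 1432, 959 and 1158 against 1434, 1233 and 2532, a log2 fold change of 0.50 ± 0.31. Groups overlapped for both, and the 0.50 of Atp6ap2 was 0.19 without amisulpride replicate 3. The -0.39 of Atp6ap1 was -0.21 without that library and -0.15 without untreated replicate 1. Whether the 2 genes differ in response was not tested.

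**Figure D4:**
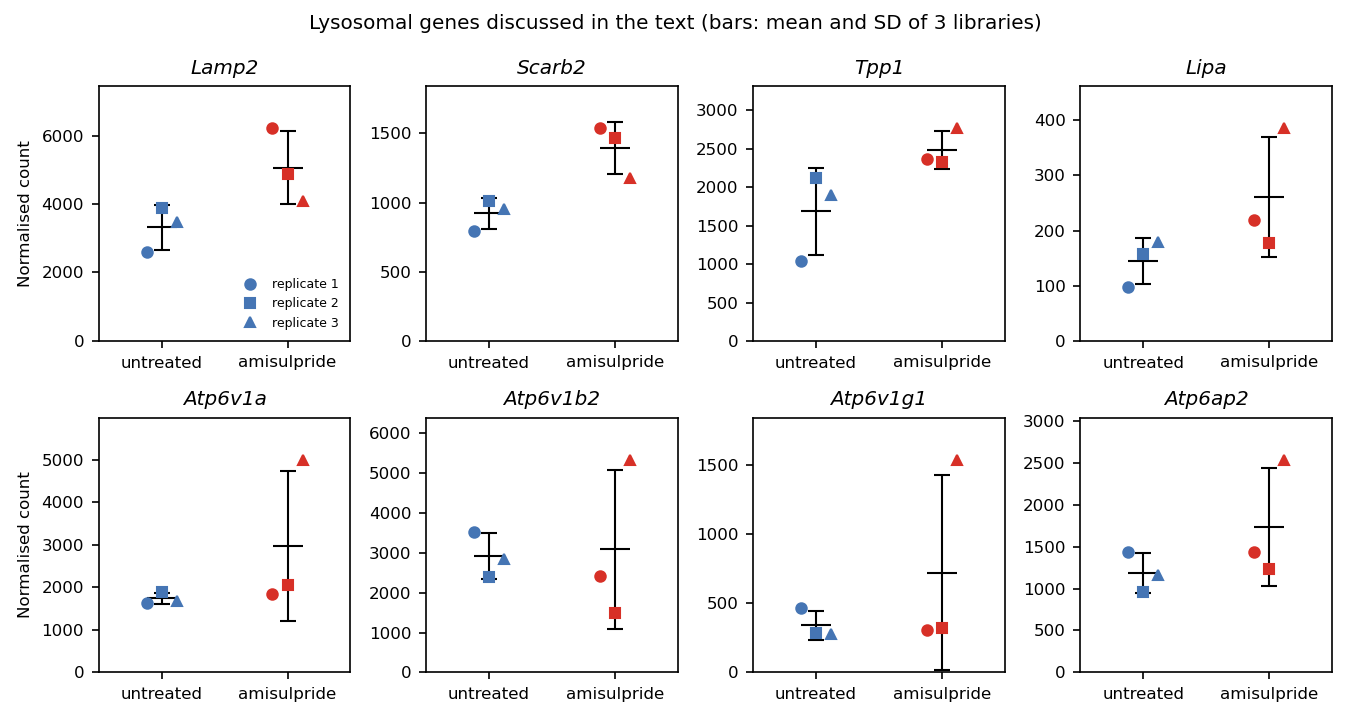
Normalized counts (y axis, from 0) of 8 genes in untreated (blue) and amisulpride (red) libraries, with bars for the mean and SD of 3 libraries and symbols for the replicate number. The upper row shows Lamp2, Scarb2 and Tpp1, whose groups do not overlap, and Lipa, and the lower row shows V-ATPase genes in which amisulpride replicate 3 stands above the other 5 libraries.

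The 3 classes differed in their order across libraries. As the median over the genes of a class, relative to the mean of the untreated libraries on the log2 scale, membrane proteins were at -0.20, 0.10 and 0.03 in untreated and 0.33, 0.02 and -0.36 in treated libraries. Hydrolases were at 0.11, 0.04 and -0.11, and at 0.17, 0.17 and -0.25. V-ATPase genes were at 0.29, -0.18 and -0.05, and at 0.10, -0.29 and -0.13. The treated range contained the untreated range for the first 2 classes and overlapped it for the V-ATPase, while the median of all genes tested stayed between -0.01 and 0.02 in each library. Amisulpride replicate 3 was the lowest of the 6 libraries for 5 of 8 membrane proteins, 12 of 24 hydrolases and 5 of 15 V-ATPase genes, and for 24.0% of all genes. It was the highest for 0, 5 and 6 genes of these classes, and for 24.8% of all genes.

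Without that library, 6 of 8 membrane proteins and 17 of 24 hydrolases were higher in treated SFs, with medians of 0.19 and 0.07. For the V-ATPase 6 of 15 genes were higher, and the median of all genes tested was -0.01. Both class medians were smaller than the SD of library medians within groups, which was 0.27 for membrane proteins and 0.19 for hydrolases with all libraries. In limma 2 of the 47 then had an unadjusted p-value under 0.05, Lamp2 and Scarb2, against 12.7% of all genes, and 0 an adjusted one. The 47 genes made up 2.01% to 2.14% of the summed value in untreated and 1.68% to 2.35% in treated libraries.

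**Figure D5:**
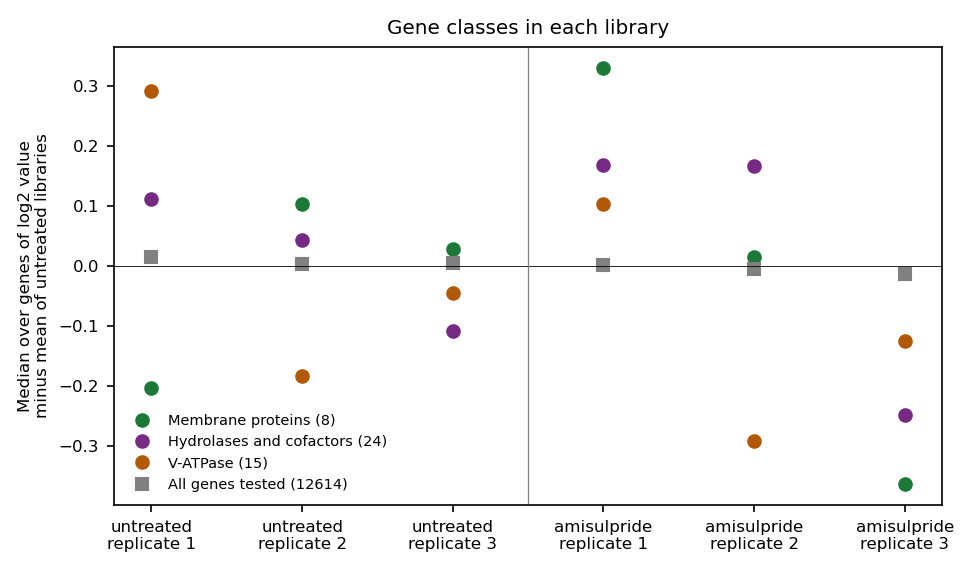
Median over the genes of each class of the log2 value minus the mean of the 3 untreated libraries (y axis) in each of the 6 libraries (x axis), with the median of all genes tested in grey. Class medians spread over -0.20 to 0.29 in untreated and -0.36 to 0.33 in treated libraries, and the grey points stay between -0.01 and 0.02.

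Another 125 genes that serve the lysosome were listed beside the 47, namely its regulators, the sorting and processing of its enzymes, further hydrolases, further membrane proteins, and further pump subunits and assembly factors. Of these 124 were found by name, 108 passed the filter, 50 were higher and 58 lower, with a median log2 fold change of -0.04. In limma 0 had an adjusted p-value under 0.05, and 11 (5 higher and 6 lower) had an unadjusted one, which is 10.2% against 10.9% of all genes. The replicate block gave 17 genes with an unadjusted p-value under 0.05 (15.7%, against 14.6% of all genes) and 1 with an adjusted one. Leaving out amisulpride replicate 3 gave 15 and 1, where 12.7% of all genes had an unadjusted p-value under 0.05. The 1 was Acp5 in both settings.

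Among further hydrolases Rnaset2a, a ribonuclease, had 430, 542 and 304 normalized counts in untreated and 843, 861 and 469 in treated libraries, a log2 fold change of 0.75 (limma adjusted p of 0.405). Ggh, which trims the glutamate tail of folates, had 158, 206 and 199 against 311, 233 and 279, a log2 fold change of 0.54 (limma adjusted p of 0.457). The groups overlapped for Rnaset2a and did not for Ggh, and both genes are named after their values were seen. Acp5, the tartrate-resistant phosphatase that marks osteoclasts, passed the study thresholds at 473, 343 and 752 against 90, 58 and 336, a log2 fold change of -2.03 ± 0.54 (SE). Its limma adjusted p-value was 0.165. It was 0.00136 with the replicate block and 0.00346 without amisulpride replicate 3, where the log2 fold change was -2.76. Of the 6 osteoclast markers, of which Acp5 is 1, the 4 that passed the filter had log2 fold changes below 0, Dcstamp also with an unadjusted limma p-value under 0.05 (63, 12 and 24 against 3, 0 and 20). Ocstamp (63, 22 and 23 against 9, 3 and 149) was higher in amisulpride replicate 3 than in any other library, so that its treated mean was above its untreated mean. None of the 6 was at 0 in all libraries. The part of osteoclast-like cells in the value of Acp5 was not tested.

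Among 17 tested regulators 1 reached an unadjusted p-value under 0.05. Mitf, the relative of TFEB that is prominent in osteoclasts and pigment cells, passed the study thresholds at 24, 17 and 21 normalized counts against 9, 13 and 4, a log2 fold change of -1.27 (limma adjusted p of 0.404). These counts are low, with a mean of 14.7 over the 6 libraries. The value of 4, in amisulpride replicate 3, lies below the 5.37 normalized counts that 3 reads are worth there. Tfeb was at -0.54 ± 0.42 (SE) and Tfe3 at -0.20 ± 0.30. In enzyme delivery the lowest p was that of Ap3b1, a subunit of the AP-3 sorting adaptor, at 140, 222 and 188 against 246, 493 and 383, a log2 fold change of 0.99 (limma adjusted p of 0.232). Among further membrane proteins it was Tmem63a, an ion channel, at 453, 396 and 481 against 287, 242 and 166 (-0.96, adjusted p of 0.183). Among further pump genes it was Tcirg1, the V0 subunit of osteoclasts and immune cells, at 976, 656 and 530 against 512, 402 and 358 (-0.73, adjusted p of 0.353). In these 3 genes, named for their low p-values, the groups did not overlap, Ap3b1 being higher and both others lower in treated SFs. Of the 108 tested genes of these lists 18 had groups that did not overlap (8 higher and 10 lower), against 16.5% of all genes. Of the 10 macrophage markers 8 were lower, where 50.1% of all genes tested were higher, and 0 were at 0 in all libraries. Lyz2, the most counted of them, was at -0.14 with overlapping groups. Cd14 and Csf1r had unadjusted limma p-values of 0.00223 and 0.0486 and adjusted ones of 0.144 and 0.456. The groups of Csf1r overlapped (114, 93 and 76 against 41, 23 and 100). The 2 higher ones were Adgre1, at 39, 25 and 14 against 59, 43 and 32 (0.83), and Cd68 (0.31). The part of such cells in the value of Tcirg1 was not tested.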

How the data were processed

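RNA of 3 untreated and 3 amisulpride-treated cultures was sequenced from the 3′ end (QuantSeq, Ion Proton), so that read numbers are not expected to scale with gene length. The authors mapped reads to mm10 with TopHat2, mapped the remainder with Bowtie2, counted reads per gene with GenomicRanges, and normalized and tested with DESeq through metaseqr. Versions are not given in the sources used here. The deposited values are a score, namely counts divided by 1 factor per library and rounded by the authors. The deposited fold changes and p-values of the authors' own test were not used, nor were another 12 columns of values per library.

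Because values are rounded multiples of what 1 read is worth, that step was estimated from low values (0.833 to 1.79 normalized counts per read), which gave the approximate depths. The estimate was weak in untreated replicate 1. As these are not raw counts, limma 3.58.1 (R 4.3.3) was used on log2(normalized count + 1) with trended moderation, two-sided. It covered genes with at least 10 in at least 3 libraries, with Benjamini-Hochberg adjustment over all 12614 genes. Fold changes on this scale understate the change of low genes. The fit was tried on simulated libraries with the same dispersion for all genes and no library that stood apart. That trial therefore does not cover a library such as amisulpride replicate 3. With 3 libraries in each group an exact permutation test cannot go below 0.1, so none was used. Values after ± are SE of the log2 fold change.

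Replicate numbers come from the labels. Deviations from group means correlated within numbers (0.229, 0.240 and 0.201), and between numbers the correlations were -0.149 to -0.078. As deviations cancel out within a group, negative values between numbers follow from positive ones within numbers and are not separate evidence. The labels do not say that equal numbers share mice or a culture, so a pairing is possible but not stated. The main fit did not use the numbers, and the fit with a replicate block was an alternative. Other alternatives changed the pseudocount, filter, scaling, library weights and the libraries used. Genes with an unadjusted p-value under 0.05, with groups that do not overlap, and the highest, lowest and most abundant of each functional group were named. The genes and lists were chosen with earlier results of these data known. Sequences are from RefSeq, and shared transcript ends were searched in GENCODE M21 transcripts. Results for some genes of these lists are not reported here.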

Additional observations from a re-analysis of the deposited data

How the results depend on the processing

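Over 17 other settings, 0 of the 47 lysosomal genes reached an adjusted p-value under 0.05 in limma, and class medians moved by less than the spread between replicates. The number with an unadjusted p-value under 0.05 (2) was 1 under quantile normalisation, 3 with the replicate block, and 0 to 4 on leaving out 1 library, with 0 without untreated replicate 1 and 4 without amisulpride replicate 1. It was 4 with the block and without number 3 in both groups, and 4 with the block and weights per library, which were both chosen after seeing the data. The study thresholds were passed by 0 to 1 genes on leaving out 1 library, Lipa being the 1 without amisulpride replicate 2, and by 0 in the other settings. Among all genes, calls at an adjusted p-value under 0.05 numbered 36, but 263 with the replicate block, 195 with library weights, 57 with a pseudocount of 5 or no filter, 66 under quantile normalisation and 0 to 120 on leaving out 1 library. Within the 47 the block changed the unadjusted call of Tpp1 only. Among the members named by the rule, log2 fold changes that turned sign were those of Laptm4a (-0.11) and Psap (-0.069) under quantile normalisation. With the block and without number 3 they were those of Atp6v0e (-0.020), Atp6v1g1 (-0.20) and Atp6v1h (0.12). On leaving out 1 library they ranged from -0.11 to 0.17 for Laptm4a, -0.23 to 0.33 for Hexa, -0.88 to 0.027 for Naglu, -0.53 to 0.066 for Smpd1, -0.14 to 0.30 for Psap, -0.039 to 0.45 for Atp6v0e, -0.60 to 0.32 for Atp6v1b2, -0.077 to 1.08 for Atp6v1g1 and -0.67 to 0.095 for Atp6v1h. The cause was not tested. Of the 47 genes 20 kept their sign in all settings. A count of 3 reads equals 2.5 to 5.37 normalized counts, which limits genes such as Gla and Idua.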
